A study of Mus musculus with 6 samples.

Results

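Igfbp2, Trpv4 and Calml4 are 3 genes of a table of 88 mouse genes that KEGG annotates to cellular senescence, in which cells stop dividing for good. The members were taken by gene symbol (Igfbp2, Entrez gene 16008; Trpv4, 63873; Calml4, 75600), and the choice was made with their values in these samples known. The table itself holds genes picked for a higher mean in aged than in young brain, so the direction of the group means is not a finding. Of the 88 genes, 66 averaged a signal of 1 or more across the 6 samples and were tested, and all 3 members were among them. The series has 3 samples labelled young brain and 3 labelled aged brain, each described as mouse brain with neuroblast, an immature migrating neuron, as the cell type. The sources used here do not give strain, genotype or the age in months. The labels of all 6 samples describe a tamoxifen injection and the measurement of tdTomato+ NK cells in several organs without saying how these bear on the sequenced RNA. The RNA was extracted from ground tissue, and no step of cell sorting before extraction is described in the labels. The labels name no animals, so the spread between samples given here may be technical.

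The choroid plexus is the secretory epithelium inside the brain ventricles that makes cerebrospinal fluid and borders the blood with tight junctions. Igfbp2 encodes a secreted protein that binds insulin-like growth factors and controls how much of them reaches their receptors, and the choroid plexus is known to express it strongly. Trpv4 encodes a calcium-permeable channel of the TRP family that opens to cell swelling, warmth and lipid mediators, and in the choroid plexus it takes part in the control of ion and fluid transport. Calml4 encodes a relative of calmodulin, the calcium sensor, and is known as a light chain of the adhesion complex that links the microvilli of epithelial brush borders. The link to the choroid plexus could not be checked here. None of 16 choroid plexus epithelium markers (Ttr, Folr1, Kl, Kcnj13, Otx2 and others), 5 ependyma markers or 5 meningeal and fibroblast markers is among the 88 genes, and none of 7 neuroblast markers is either. Over 11 marker lists with 65 genes, 0 genes were in the table. The genes are therefore called by their symbols below.

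The promoters are shown as a description of the letters before the 3 start sites, and no tie to the values of the genes was tested. Each window holds the 250 bases before the RefSeq start of the gene in build GRCm38.p6, 5′ to 3′ on the gene's strand, with matches to the motifs searched in capitals (Igfbp2, chr1:72824230-72824479, plus strand; Trpv4, chr5:114658422-114658671, minus strand; Calml4, chr9:62857854-62858103, plus strand).
Igfbp2: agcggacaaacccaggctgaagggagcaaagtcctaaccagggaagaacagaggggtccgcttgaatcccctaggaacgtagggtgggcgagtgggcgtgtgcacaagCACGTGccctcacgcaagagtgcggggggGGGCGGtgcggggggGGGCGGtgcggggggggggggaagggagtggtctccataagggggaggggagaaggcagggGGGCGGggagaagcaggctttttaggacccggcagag
Trpv4: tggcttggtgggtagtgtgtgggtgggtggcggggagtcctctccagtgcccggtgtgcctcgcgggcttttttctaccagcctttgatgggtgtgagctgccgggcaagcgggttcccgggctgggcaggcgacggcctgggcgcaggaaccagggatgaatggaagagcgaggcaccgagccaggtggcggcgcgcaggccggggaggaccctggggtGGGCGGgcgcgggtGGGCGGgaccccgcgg
Calml4: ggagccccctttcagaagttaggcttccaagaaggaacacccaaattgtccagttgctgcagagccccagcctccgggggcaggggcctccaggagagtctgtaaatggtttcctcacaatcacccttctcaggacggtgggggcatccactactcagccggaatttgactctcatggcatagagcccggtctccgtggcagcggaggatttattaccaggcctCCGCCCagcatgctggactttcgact
The GC box GGGCGG was found in each window on either strand, 3 times in Igfbp2, 2 times in Trpv4 and 1 time in Calml4, where it lies on the opposite strand as CCGCCC. It was also present in 32.7% of all 32851 windows of the same length. The match nearest the start begins 37, 16 and 26 bases before it in Igfbp2, Trpv4 and Calml4. The E-box CACGTG occurred 1 time, 142 bases before the Igfbp2 start, and in 6.02% of all windows. The TATA box TATAAA (12.4% of all windows), the RFX half-site GTTGCC (10.4%) and the OTX2 core TAATCC (6.25%) matched none of the 3 windows on either strand. No matches overlapped. The windows differed in base composition, with a GC content of 67.2% in Igfbp2, 72% in Trpv4 and 57.6% in Calml4, against a median of 52.4% over all windows. Of all windows, 86.5%, 93.1% and 65.8% had a lower GC content than these. The share of the GC box among windows of like GC content was not computed. A second RefSeq start of Igfbp2 has a window at chr1:72825137-72825386 that matched none of the motifs. A match describes the letters and is not evidence that a factor binds there.

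The secreted factor Igfbp2 was listed at an expression signal of 733, 329 and 353 in young replicates 1 to 3 and at 169.6, 776 and 814 in aged replicates 1 to 3. The deposited signal is the authors' value per gene and sample, and its unit is not named. Young replicate 1 thus lay close to aged replicates 2 and 3, and aged replicate 1 lay below all young samples, so the groups overlapped. The aged mean was 587 ± 362 and the young mean 471 ± 226 (SD, n = 3 each), a ratio of 1.24. Inside the young group, replicate 1 was 2.15 times the mean of replicates 2 and 3, and inside the aged group the mean of replicates 2 and 3 was 4.69 times replicate 1. Both of these spreads inside a group were larger than the ratio between the groups.

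The channel gene Trpv4 was listed at 60.01, 49.91 and 54.49 in the young and at 18.4, 74.74 and 80.15 in the aged samples. The young samples lay close together and the aged samples lay on both sides of them, with replicates 2 and 3 above all young samples and replicate 1 below. The aged mean was 57.8 ± 34.2 and the young mean 54.8 ± 5.06 (SD, n = 3 each), a ratio of 1.05. The coefficient of variation was 9.23% in the young and 59.2% in the aged group. In aged replicate 1 the Trpv4 signal was 0.336 times the young mean, near the 0.36 of Igfbp2, while Calml4 was at 0.773.

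The calmodulin relative Calml4 was listed at 67.52, 35.49 and 28.93 in the young and at 34.01, 74.88 and 65.67 in the aged samples. Young replicate 1 lay between aged replicates 3 and 2, and aged replicate 1 lay between young replicates 3 and 2, so each group spanned most of the other. The aged mean was 58.2 ± 21.4 and the young mean 44.0 ± 20.6 (SD, n = 3 each), a ratio of 1.32. Replicate 1 was 2.10 times the mean of the others in the young group, close to the 2.15 of Igfbp2, whereas Trpv4 had 1.15.

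**Figure D1:**
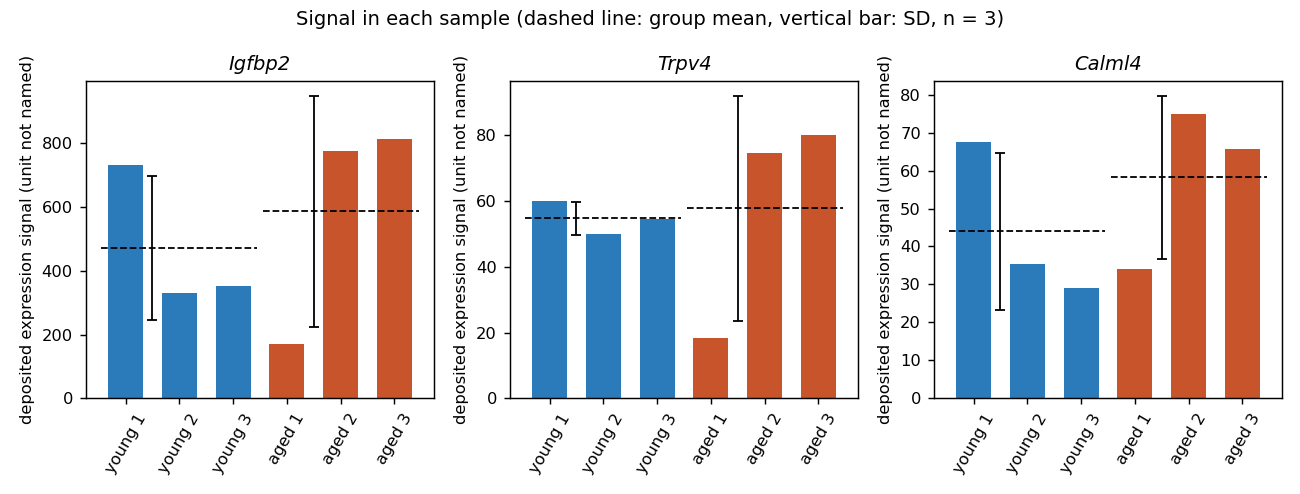
Deposited expression signal (vertical axes, unit not named, scaled per gene) of Igfbp2, Trpv4 and Calml4 in 3 young (blue) and 3 aged (orange) samples, with the group mean as a dashed line and the SD as a vertical bar (n = 3). Aged 2, aged 3 and young 1 are the 3 highest samples in each panel, and aged 1 is the lowest for Igfbp2 (169.6) and Trpv4 (18.4).

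In all 3 genes the 3 highest samples were aged replicates 2 and 3 and young replicate 1. Among the 66 tested genes 12 had these 3 samples highest (18.2%), the members included. Aged replicates 2 and 3 above and aged replicate 1 below all young samples was the order of Igfbp2 and Trpv4, and of 21 of 66 genes (31.8%). Calml4 had 1 aged sample above all young samples and none below. None of the members had all aged samples above all young samples, an order that 4 of 66 genes had (6.06%). These orders helped choose the members and nothing is read from their counts. In bulk RNA, fewer cells of a type and less RNA per cell cannot be told apart.

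The spread inside each group was set beside that of the other genes on the log2(signal + 1) scale. Young replicate 1 was set apart after the members' values in it were seen. Their ranks on that difference are therefore a description, and nothing is read from them. The difference of young replicate 1 from the mean of the other young samples was 1.10 for Igfbp2 and 1.05 for Calml4, the highest and second highest of the 66 genes, whose median was 0.14. Trpv4 had 0.20 and ranked 29. The same difference for aged replicate 1 against the other aged samples was −2.22 for Igfbp2, −2.01 for Trpv4 and −1.02 for Calml4, which ranked 4, 6 and 17 from the lowest, against a median of −0.13. Young replicate 1 was raised and aged replicate 1 lowered in 16 of the 66 genes, the 3 members among them. Trpm7, the other TRP channel of the table, ranked next to Calml4 with 0.92 in young replicate 1 and had 1.17, the reverse sign, in aged replicate 1.

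**Figure D2:**
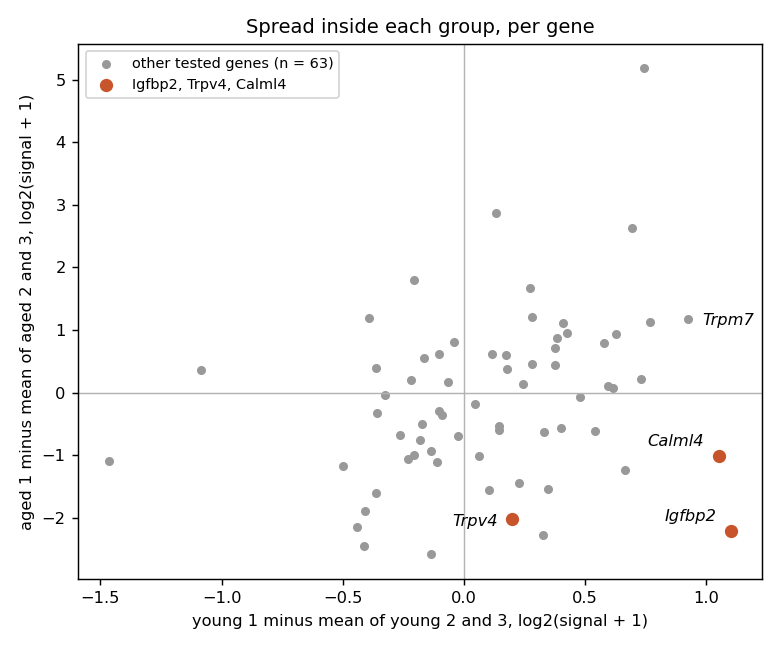
Each point is 1 of 66 genes, with young 1 minus the mean of young 2 and 3 on the horizontal axis and aged 1 minus the mean of aged 2 and 3 on the vertical axis, both in log2(signal + 1). Igfbp2 (1.10, −2.22) and Calml4 (1.05, −1.02) lie farthest to the right, Trpv4 (0.20, −2.01) lies low near the middle, and Trpm7 (0.92, 1.17) lies above them. Young 1 was set apart after the members' values in it were seen.

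Over the whole table aged replicate 1 was the library least like the rest, with a Pearson correlation across the 66 genes of 0.723 to 0.844 with each of them, against 0.930 to 0.992 among the other 5. It was the lowest of the 6 samples in 26 genes and the highest in 28. The summed signal of the 88 genes was 1900 to 2992 per library, and the depth is unknown. The members differ in transcript composition, which was taken from GENCODE release M21 for 62 of the 66 genes. Igfbp2 had the highest GC content of these (62.1%) and Trpv4 the fourth highest (59.0%), while Calml4 (48.0%) was below the median of 51.6% and had the shortest transcript, 864 bases against a median of 2449. After a linear trend on GC content and log2 length, fitted per library over the other genes, was taken out, the difference of aged replicate 1 from the other aged samples was −0.85 for Igfbp2, −1.16 for Trpv4 and −0.999 for Calml4. The value of Igfbp2 was thus less negative by more than 1 log2 unit, and that of Calml4 was nearly the same. From the lowest, Igfbp2 then ranked 13, Trpv4 8 and Calml4 9 of 62 genes. The difference of young replicate 1 from the other young samples was then 1.55 for Igfbp2, 0.58 for Trpv4 and 0.73 for Calml4. Igfbp2 and Calml4 again ranked first and second, now of 62 genes, and Trpv4 ranked 5. Nothing is read from these ranks either, because young replicate 1 was set apart with the members' values in it known. Igfbp2 in GC content and Calml4 in length lie outside the ranges of the other genes, over which the trend was fitted. For these genes the trend was therefore extrapolated. The part of base composition and length in these values was not tested further.

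Ratios of 2 genes inside a library do not depend on the scale of that library. Igfbp2 over Trpv4 was 9.22, 10.4 and 10.2 in aged replicates 1 to 3, nearly level although each of the genes was over 4-fold lower in aged replicate 1 than in the mean of the other aged samples (4.69-fold and 4.21-fold). In the young samples the same ratio was 12.2, 6.59 and 6.48, with young replicate 1 above all the others. A drop of like size in aged replicate 1 was not particular to this pair. H2-T22, for example, was at 9.59, 37.26 and 39.86 in aged replicates 1 to 3. The order of Igfbp2 and Trpv4, aged replicate 1 lowest and aged replicates 2 and 3 highest, was that of 21 of 66 genes. A shared order does not by itself make a ratio level, and ratios with genes other than the members were not computed. The members were chosen with their values known, so the ratios are a description and were not tested. Igfbp2 over Calml4 was 10.9, 9.27 and 12.2 in the young samples and 4.99, 10.4 and 12.4 in the aged samples. That ratio lay between 9.27 and 12.4 in 5 libraries, across the 2.15-fold and 2.10-fold excess of young replicate 1, and lowest in aged replicate 1. Trpv4 over Calml4 was 0.889, 1.41 and 1.88 in the young and 0.541, 0.998 and 1.22 in the aged samples, and it spread the most of these ratios, 3.48-fold from lowest to highest against 1.88-fold for Igfbp2 over Trpv4. The deposited signal may or may not be scaled by length, so the size of a ratio is not a ratio of transcripts.

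**Figure D3:**
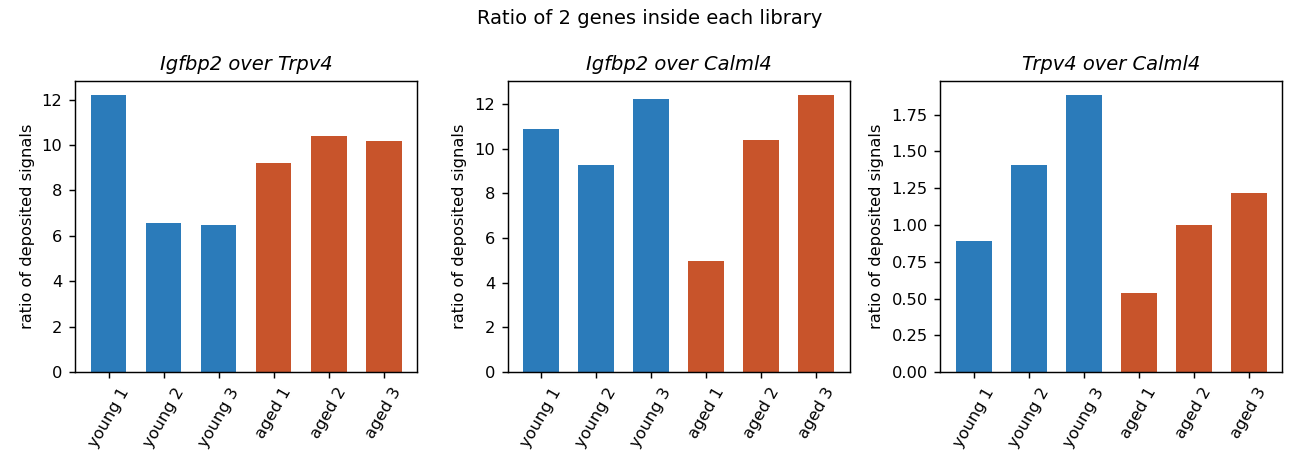
Ratio of the deposited signals of 2 genes inside each library (vertical axes) for 3 young (blue) and 3 aged (orange) samples. Igfbp2 over Trpv4 is level in the aged samples (9.22 to 10.4), Igfbp2 over Calml4 is level in all samples but aged 1 (4.99), and Trpv4 over Calml4 runs from 0.541 to 1.88.

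Likeness of profiles was measured as the root-mean-square difference between log2(signal + 1) profiles, each centred on its own mean over the 6 samples. The members were chosen with their values known, so their distances and ranks are a description. The gene most like Igfbp2 was Trpv4 (0.34 log2 units), followed by Traf3ip2, an adaptor of interleukin-17 signalling (0.42), and Cdkn2b, which encodes a cyclin-dependent kinase inhibitor (0.44), with Calml4 next at 0.45. Most like Trpv4 were the cyclin gene Ccnd3 (0.23) and the MHC class I genes H2-T22 (0.23) and H2-D1 (0.27), while Igfbp2 ranked 6 and Calml4 21 of 65. Most like Calml4 were the stress gene Gadd45g (0.28), Cdkn2b (0.32) and the MHC class I gene H2-Q8 (0.33), while Igfbp2 ranked 17 and Trpv4 28 of 65. Cdkn2b was listed at only 0.29 to 3.63, where the added 1 narrows its differences between samples, so its likeness to the members is uncertain. The distances were not computed with another pseudocount. The median over all 2145 pairs of genes was 0.54, and Trpv4 and Calml4 differed by 0.55. The 3 genes were therefore not each other's closest profiles in the table, apart from Trpv4 for Igfbp2. Ccnd3 shares with Trpv4 a low aged replicate 1, at 28.67 against 176.85 and 178.4 in the other aged samples, and at 100.04, 107.9 and 112.41 in young samples. Gadd45g shares with Calml4 the 3 highest samples, at 30.82 and 26 in aged replicates 2 and 3 and 24.92 in young replicate 1.

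**Figure D4:**
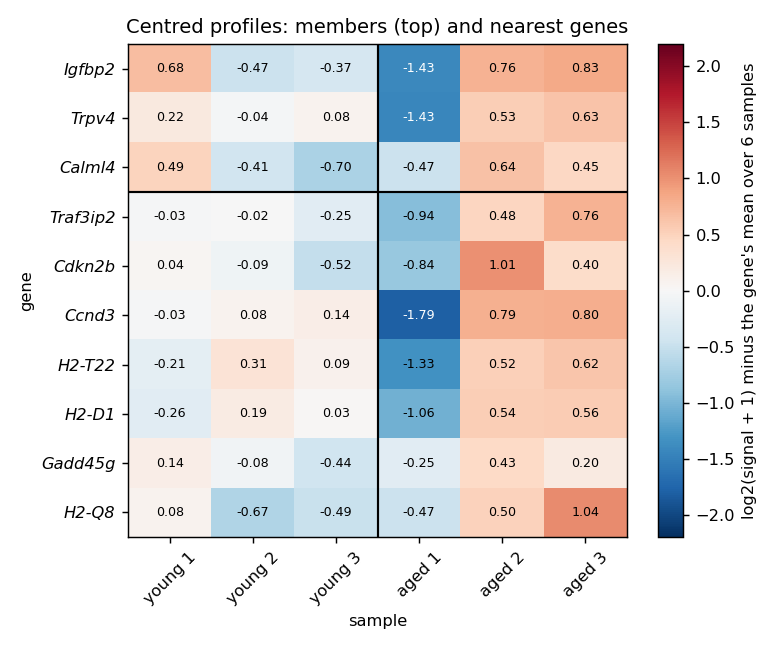
Centred profiles in log2(signal + 1) of Igfbp2, Trpv4 and Calml4 (above the line) and of the genes nearest to them, with samples in columns and red above and blue below the gene's mean. Aged 1 is the deepest blue for Igfbp2 and Trpv4 (−1.43 each), and young 1 is positive for each of the 3 genes (0.68, 0.22 and 0.49).

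Without aged replicate 1 the order of likeness was different. Over the other 5 libraries Igfbp2 and Calml4 were each other's nearest profile among 65 genes, at 0.16 log2 units, where the median over all pairs was 0.35. Of the 2145 pairs of genes, 188 were nearer than that. Trpv4 was then nearest to the MHC class I gene H2-T23 (0.13), the small GTPase gene Rheb (0.14) and the phosphatase gene Ppp1cc (0.15), and Calml4 and Igfbp2 ranked 44 and 45 from it. Without young replicate 1 the nearest profile of Igfbp2 was the MHC class I gene H2-Q7 (0.17) and that of Calml4 was H2-Q6 (0.12), and Igfbp2 and Calml4 differed by 0.48. H2-Q6, H2-Q7 and H2-Q8 are related copies among which reads could have been split, so their single values are uncertain. Leaving out aged replicate 1 thus brought Igfbp2 and Calml4 from 0.45 to 0.16, and the distance of Igfbp2 from Trpv4 went from 0.34 to 0.37. Likeness without 1 library was added after seeing the data, and the members were chosen with their values known. Nothing is read from these distances, ranks and counts of pairs.

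The study's comparison of aged with young brain was described for the members from a fit over all 66 genes with limma, a linear model with variances moderated across genes, on log2(signal + 1). The fitted difference, aged minus young, was 0.11 (SE 0.777) for Igfbp2, −0.18 (SE 0.550) for Trpv4 and 0.41 (SE 0.430) for Calml4, against a median of 0.12 over all genes. For Trpv4 the mean of logs was lower in the aged samples although the mean signal was higher. Limma called 0 of the 3 members and 0 of 66 genes (0%) at a 5% false discovery rate, with 3 of 66 genes at an unadjusted p under 0.05. Without aged replicate 1 the differences were 0.85 (SE 0.334), 0.49 (SE 0.124) and 0.76 (SE 0.319), and limma called 1 of the 3 members, Trpv4, and 15 of 66 genes (22.7%). The table was chosen on this contrast, so nothing is read from these counts. Of 16 settings, several cannot move a fitted difference, and each gene had 11 distinct values. Those of Calml4 ran from 0.035 to 0.92 and were above 0. Those of Igfbp2 were above 0 in 5 and below in 6, and those of Trpv4 were above 0 in 2 and below in 9.

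**Figure D5:**
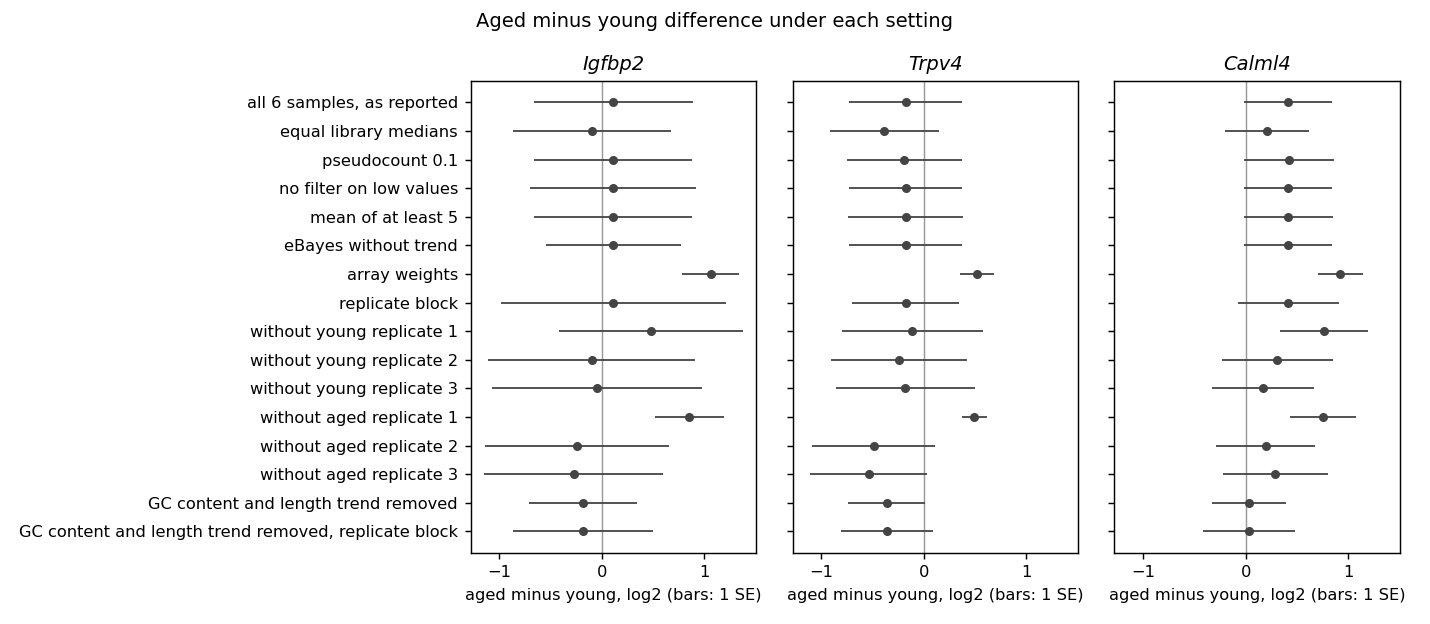
Fitted aged minus young difference in log2(signal + 1) of Igfbp2, Trpv4 and Calml4 (horizontal axes, bars of 1 SE) under 16 settings (rows). All 3 genes have their largest values with array weights (1.06, 0.52 and 0.92), and without aged replicate 1 they are at 0.85, 0.49 and 0.76. Without young replicate 1 Trpv4 is at −0.11. Igfbp2 and Trpv4 lie on both sides of 0.

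The authors' deposited table lists a log2 ratio of aged to young of 0.31 for Igfbp2, 0.12 for Trpv4 and 0.44 for Calml4. The log2 ratio of the group means computed here was 0.32, 0.076 and 0.40. The q-value in the authors' deposited table was 3.96e-150 for Igfbp2, 1.01e-07 for Trpv4 and 1.72e-20 for Calml4, and the sources used here do not name their test. Igfbp2 had the 6th lowest q-value of the 85 genes that have one, and 54 of the 85 (63.5%) were listed below 0.05, all 3 members among them. The q-values in the authors' deposited table thus pass that threshold for genes whose young and aged samples overlap in the same table.

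By annotation the members share little beyond the pathway that defines the table. Igfbp2 and Trpv4 carry 2 KEGG terms each and Calml4 carries 32, where the median gene carries 5. Senescence is the 1 term common to all 3. Igfbp2 has the p53 signalling term besides, together with 16 other genes of the table, and Trpv4 and Calml4 share a term for the regulation of TRP channels by inflammatory mediators, which 10 genes hold.

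The other tested genes of the calcium arm of the pathway did not all have their highest, or their lowest, value in the same sample. Of 31 genes in the list, 9 were in the table and 7 were tested. Limma called 0 of the 7. Without Trpv4 and Calml4, the median difference of the other 5 was 0.015, against 0.12 over all genes. Trpm7 was listed at 11.57, 7.06 and 4.45 in young and 14.5, 6.88 and 5 in aged samples, so that aged replicate 1 was its highest sample and for Trpv4 the lowest. The calcineurin subunit gene Ppp3cb was also highest in aged replicate 1, at 23.42 against 19.35 in young replicate 1, its next highest sample. Nfatc2, a transcription factor that calcineurin activates, was highest there by a small margin, at 10.01 against 9.72 in young replicate 3. Ppp3cc, another calcineurin subunit gene, was lowest there, at 6.21 against 12.38 and 9.3 in the other aged samples. Nfatc1 had an aged mean of 25.5 ± 3.68 and a young mean of 25.2 ± 3.71 (SD, n = 3 each). Calml3, the relative of Calml4 in the table, was listed at 0 to 0.21 and was not tested.

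Of 22 genes of the insulin-like growth factor axis and secreted senescence factors, 4 were in the table and 3 were tested, and limma called 0 of the 3. Igfbp2 was the 1 binding protein among them. The cytokine gene Il1a was highest in aged replicate 1, at 141.87, where Igfbp2 was lowest. Il6, also a cytokine gene, was listed at 0.06 to 1.63 and was not tested.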

How the data were processed

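Messenger RNA of 3 young and 3 aged mouse brain samples was sequenced after oligo(dT) selection and random-hexamer copying, per the labels' protocols. The deposited values are an expression signal for each gene in each sample. The sources used here do not name its unit, normalization, aligner or build, and the depth is unknown. Per the file headers, the same rows hold the authors' own comparison, a log2 ratio with its p-value and q-value. The smaller cell cycle table repeats rows of the senescence table and holds 0 of the members. Groups and replicate numbers came from the sample titles.

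The 66 of 88 genes whose signal averaged 1 or more were fitted on log2(signal + 1) with limma 3.58.1 in R 4.3.3 (eBayes with trend, no covariate, Benjamini-Hochberg adjustment at 5%), and the fit was tested on simulated data. No p-value is given for single members, because the table and the members were chosen on this contrast. The members and lists were chosen with earlier results of these data known. Named genes were the members and, for each, the 3 genes with the nearest centred profile. H2-T23, Rheb, Ppp1cc, H2-Q7, H2-Q6 and the list genes given with values, Trpm7 among them, were named after their values were seen. The values of 1 list gene are not reported here. Alternatives were equal library medians, another pseudocount or filter, eBayes without trend, array weights, a block on the replicate number, a 10% false discovery rate, and each library left out. Removal of GC content and length trends, with and without the block, and likeness without 1 library were added after seeing the data. The differences of replicate 1 from the other samples of its group were not planned either. Trends were fitted over the tested genes other than the members. The longest coding transcript in GENCODE M21 gave length and GC content, and promoters from RefSeq (3 of 3 members matched). Python 3.11.15 with numpy 2.4.6, pandas 2.3.3 and matplotlib 3.10.9 was used.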

Additional observations from a re-analysis of the deposited data

How the results depend on the processing

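Limma called 0 of 66 genes in the fit of all 6 libraries, and 15 with array weights or without aged replicate 1; with 1 library left out the count ran from 0 to 15. Array weights, whose estimation stopped before reaching its tolerance, gave aged replicate 1 a weight of 0.0695 and young replicate 1 a weight of 0.661, and called all 3 members. The difference of Igfbp2 (0.11) became −0.096 with equal library medians and −0.19 with GC content and length trends removed, with or without the replicate block. With 1 library left out it ran from −0.28 to 0.85, at −0.098 without young replicate 2, −0.047 without young replicate 3, −0.24 without aged replicate 2 and −0.28 without aged replicate 3. The difference of Trpv4 (−0.18) became 0.52 with array weights and ran from −0.54 to 0.49 with 1 library left out. The cause was not tested. Equal medians lowered each difference by 0.21, from a median over genes of 0.12 to −0.091. The replicate numbers were not taken as pairs, because the labels do not say that they pair the samples. Deviations of same-numbered samples correlated at 0.271, 0.0908 and 0.408 across genes. Samples of different numbers were not compared in this way, so these values do not settle pairing. The count with the replicate block was 0. With 3 samples in each group the block cannot change a fitted difference. With 1 library left out, the aged minus young difference of log2 ratios ran from 0.14 (without young replicate 3) to 0.60 (without young replicate 1) for Igfbp2 over Trpv4 (0.30 with all), and from −0.90 (without young replicate 1) to −0.27 (without aged replicate 1) for Trpv4 over Calml4 (−0.61 with all). For Igfbp2 over Calml4 (−0.31 with all) the lowest value was −0.57 (aged replicate 3 left out), and it turned sign to 0.082 when aged replicate 1 was left out. Unknown depth means that no counting error can be given.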
